A study of Ovis aries with 4 samples.

Results

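HSPA1A, HSPA8, HSPB1 and DNAJB1 are 4 heat shock genes, taken by symbol out of the 26478 gene identifiers that the deposited gene lists hold. HSPA1A is ENSOARG00020012603, HSPA8 is ENSOARG00020020443, HSPB1 is ENSOARG00020023827 and DNAJB1 is ENSOARG00020000632. The list of the whole cells libraries leaves HSPA8 without a symbol, so that gene was matched there by its identifier. HSPA1B, the near-identical copy of HSPA1A in other mammals, is not among the listed symbols, and HSPA1A overlaps HSPA1L in the sheep RefSeq assembly ARS-UI_Ramb_v3.0, so reads of these genes may have been shared and the HSPA1A values are uncertain to that extent.

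The samples were frozen striatum, a deep region of the forebrain, of 4 sheep (Ovis aries) aged 5 years, with no treatment or genotype given in the labels. Each of the 4 droplet libraries held material pooled from 2 animals, so no value belongs to a single sheep. The 2 whole cells libraries came from tissue digested with papain and the 2 nuclei libraries from tissue homogenised in a detergent buffer. Replicate 1 of each kind came from sheep 1 and 2 and replicate 2 from sheep 3 and 4 by the sample titles, while the protocol text gives the later cell suspension to animals 2 and 3.

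Heat shock proteins are chaperones that hold, refold or hand on other proteins. HSPA8 encodes the HSP70 that most cells make at all times, which in neurons also helps to strip clathrin from vesicles, whereas HSPA1A encodes the HSP70 that stress induces through the transcription factor HSF1. DNAJB1 encodes a J protein, a partner that delivers clients to HSP70 and stimulates its ATPase, and HSPB1 encodes a small heat shock protein that holds unfolded proteins without ATP and is known from reactive astrocytes in brain.

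The whole cells libraries held 2162 and 32500 barcodes with 1115058 and 19241918 unique molecular identifiers (UMIs, each a captured RNA molecule), of which 88.7% and 86.9% came from mitochondrial genes. The nuclei libraries held 8815 and 8723 barcodes with 70473292 and 51102420 UMIs, of which 0.779% and 0.776% were mitochondrial. Only 68 and 269 whole cells barcodes carried 200 or more genes, against 8810 and 8720 nuclei barcodes. No whole cells barcode met the limits used for nuclei (200 genes or more, and no more than 5% of UMIs mitochondrial), so the whole cells were compared only as library sums. Pairs of libraries shared between 2 and 87 barcode sequences. Striatal markers were present in every library: 9 of 13 and 13 of 13 medium spiny neuron markers had a UMI in the whole cells libraries, and 13 of 13 did in both nuclei libraries.

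Nuclei were compared with whole cells because the series asked which of them is the better source for single-cell sequencing of frozen brain. HSPA8, HSPB1 and DNAJB1 took a smaller share of the nuclear-genome RNA in both nuclei libraries than in both whole cells libraries, and HSPA1A was too sparse in one whole cells library to place. In such library sums, fewer cells of a type and less RNA per cell cannot be told apart. Some cell type markers differed with the kind of library: the 13 medium spiny neuron markers summed to 413 and 1302 CPM of nuclear-genome UMIs in whole cells and to 4157 and 3517 in nuclei, the 9 astrocyte markers to 1294 and 2100 against 702 and 790, and the 12 microglia markers to 262 and 285 against 128 and 170. The 9 oligodendrocyte precursor markers summed to 564 and 307 in whole cells against 2267 and 2372 in nuclei, while the 9 oligodendrocyte markers overlapped, at 2612 and 654 against 1168 and 1512. Their part in the values of the heat shock genes was not tested. The shares below are in CPM, the usual scaling of counts to an equal total: a gene's UMIs over the nuclear-genome UMIs of the library, with exact 95% Poisson intervals that cover counting error only.

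HSPA8 had 75 and 2492 UMIs in the whole cells libraries, or 595 CPM (468 to 746) and 992 CPM (953 to 1031). It had 5877 and 4357 UMIs in the nuclei libraries, or 84.0 CPM (81.9 to 86.2) and 85.9 CPM (83.4 to 88.5). Both whole cells libraries stood above both nuclei libraries, and the nuclei libraries lay close together. On the composition-adjusted (TMM) scale of edgeR's quasi-likelihood test, the log2 fold change in nuclei over whole cells was -3.26 (SE 0.55, Benjamini-Hochberg adjusted p = 7.84e-06).

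HSPB1 had 14 and 587 UMIs in whole cells, or 111 and 234 CPM, and 477 and 209 UMIs in nuclei, or 6.82 and 4.12 CPM. Again the kinds of library did not overlap, and of the nuclei libraries replicate 1 held 1.66 times the share of replicate 2. The log2 fold change was -5.12 (SE 0.54, edgeR adjusted p = 4.16e-09).

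DNAJB1 had only 3 and 62 UMIs in whole cells, or 23.8 CPM (4.91 to 69.6) and 24.7 CPM (18.9 to 31.6). In nuclei it had 443 and 385 UMIs, or 6.34 and 7.59 CPM. The point values of the kinds did not overlap, although the interval of whole cells replicate 1 reached below both nuclei values. The log2 fold change was -1.93 (SE 0.46, edgeR adjusted p = 0.000653).

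HSPA1A had no UMI in whole cells replicate 1 and 21 in replicate 2, or 8.36 CPM (5.17 to 12.8). In nuclei it had 151 and 108 UMIs, or 2.16 and 2.13 CPM. At the depth of whole cells replicate 1 a count of 0 allows up to 23.8 CPM (3 UMIs), which is above every other library, so that library could not show a difference either way and the groups overlap. The log2 fold change of -1.91 (SE 0.68, edgeR adjusted p = 0.0185) therefore rests on whole cells replicate 2, and without that library no value can be given.

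**Figure D1:**
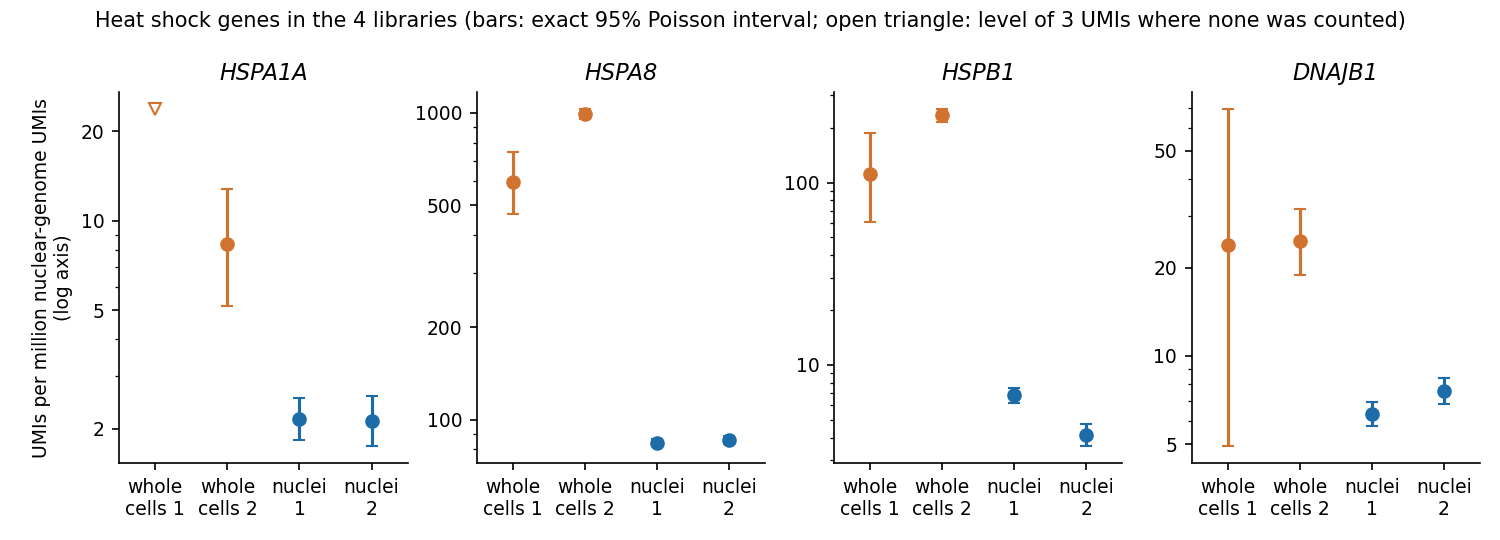
CPM of nuclear-genome UMIs of each heat shock gene (log axis) in the 4 libraries, whole cells in orange and nuclei in blue, with exact 95% Poisson intervals as bars. The open triangle is the level of 3 UMIs in whole cells replicate 1, where HSPA1A had 0. HSPA8 stands at 595 and 992 CPM in whole cells and at 84.0 and 85.9 in nuclei.

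Of the 4 genes, 4 were called higher in whole cells at an adjusted p under 0.05, where 22.4% of the 15781 genes tested were called in that direction and 29.8% higher in nuclei. The p-values measure the spread between libraries of a kind, with 2 libraries a kind. In that spread, animals, preparation and depth are mixed. With the animal pool as a replicate block, HSPA8 and HSPB1 kept the call, and the adjusted p of HSPA1A became 0.0968 and that of DNAJB1 0.0711.

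The direction of HSPA1A and DNAJB1 depends on the scale. Library size alone divides by all UMIs, and 88.7% and 86.9% of those in whole cells were mitochondrial, against 0.779% and 0.776% in nuclei. With mitochondrial genes left out, on the TMM scale, HSPA1A was at -1.88 (edgeR adjusted p = 0.0186) and DNAJB1 at -1.90 (edgeR adjusted p = 0.000544). Scaled by library size alone, edgeR's log2 fold change was 1.21 for HSPA1A (adjusted p = 0.140) and 1.15 for DNAJB1 (adjusted p = 0.0412), both higher in nuclei, while HSPA8 was at -0.27 (adjusted p = 0.421) and HSPB1 stayed lower in nuclei at -2.12 (adjusted p = 0.000558). That scaling moved the median of all genes from 0.61 to 3.66. Since a change of scaling shifts all genes by nearly the same amount, values relative to the median gene hardly move with it: with TMM they were -2.52 for HSPA1A, -2.54 for DNAJB1, -3.87 for HSPA8 and -5.72 for HSPB1.

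The kind of library, the version of the counting program, the share of mitochondrial RNA and the few genes per whole cells barcode change together here and cannot be told apart. Among whole cells barcodes of at least 200 genes, HSPA8 stood at 965 and 694 CPM and HSPB1 at 111 and 129 CPM, and both genes kept their call in a fit on such barcodes alone, at -1.92 and -3.28 on the log2 scale. On these barcodes HSPA1A had 0 and 1 UMIs and DNAJB1 1 and 4 in whole cells, and their log2 fold changes were -0.03 (edgeR adjusted p = 0.989) and -0.69 (edgeR adjusted p = 0.523). With all barcodes but without whole cells replicate 2, HSPA8 stood at -2.42, HSPB1 at -3.93 and DNAJB1 at -1.39 (edgeR adjusted p = 0.335).

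The wider chaperone system was read from lists of HSP70, HSP40, HSP90, small heat shock, chaperonin, co-chaperone and heat shock factor genes, 68 of whose genes were tested. Of these, 42 were called higher in whole cells and 7 higher in nuclei on the TMM scale, with a list median of -1.66 against 0.61 over all genes. With library size alone, which counts mitochondrial UMIs too, these counts were 5 and 43, where 498 and 12537 of the 15781 genes were called in those directions. With mitochondrial genes left out, on the TMM scale, they were 42 and 8, where 3493 and 4835 of 15774 genes were called. With the replicate block they were 21 and 3, where 2246 and 3225 of all genes were called. All 4 HSP90 genes were called higher in whole cells with TMM, though TRAP1, the mitochondrial one, turned from -1.45 to 1.59 with library size alone and lost its call with the replicate block (edgeR adjusted p = 0.192). HSP90AA1, the stress-inducible cytosolic HSP90 (listed under its older symbol HSPCA), was at -4.75, and HSP90AB1, the constitutive one, at -4.34. With library size alone these values were -1.74 and -1.33.

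The 7 chaperonin genes tested, subunits of barrel-shaped folding machines, were all called higher in whole cells with TMM, from HSP10 (HSPE1) at -4.06 to CCT6A at -1.72, but with library size alone they ran from -1.09 for HSP10 to 1.38 for CCT6A. With the replicate block, 3 of the 7 lost the call, TCP1 (edgeR adjusted p = 0.0731), CCT5 (0.0909) and CCT6A (0.237). Of 13 HSP70 and HSP110 genes, 8 were called higher in whole cells and 0 in nuclei with TMM, and 3 of the 8 kept the call with the replicate block while 6 had the other sign with library size alone. HSPA2, a testis-enriched HSP70 also made in brain, was at -3.66 and HSPA5, the HSP70 of the endoplasmic reticulum, at -2.76, against -0.50 and 0.24 with library size alone. HSPH1, the HSP110 that exchanges nucleotides on HSP70, was at -1.30 (edgeR adjusted p = 0.0306) with TMM, where the replicate block ended the call (edgeR adjusted p = 0.292), and at 1.66 with library size alone. CRYAB, a small heat shock protein abundant in oligodendrocytes and lens, was at -3.82 with TMM and -0.92 with library size alone.

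Over all genes, 22.4% were called higher in whole cells and 29.8% higher in nuclei with TMM. Of 18 J protein genes, 9 were called higher in whole cells with TMM, but 1 of the 9 kept the call with the replicate block and all 9 had the other sign with library size alone. The 2 called higher in nuclei, which kept the call with the block, were DNAJC6 (auxilin, which recruits HSP70 to clathrin coats in neurons) at 3.02 and DNAJC1 at 2.61. Of 15 co-chaperones, 9 were called higher in whole cells and 2 in nuclei with TMM, of which 6 and 1 kept the call with the block, and 8 of the 9 had the other sign with library size alone. FKBP4 was at -3.19 with TMM and -0.13 with library size alone. BAG3, which links HSP70 to autophagy, was at -0.91 (edgeR adjusted p = 0.216) with TMM and 2.18 with library size alone. Of the 4 heat shock factors, HSF5 at 1.74 and HSF2 at 1.52 were called higher in nuclei with TMM, HSF4 at -1.72 higher in whole cells (1.36 with library size alone), all 3 calls being lost with the replicate block (edgeR adjusted p = 0.169, 0.109 and 0.0624), and HSF1, the main inducer of HSPA1A, at 1.497 did not pass (edgeR adjusted p = 0.0524). Of 13 immediate early genes, read as a sign of recent stimulation, 2 were called higher in nuclei (BTG2 at 4.78 and NR4A2 at 3.36) and 5 higher in whole cells with TMM, among them JUND at -3.81 (-0.77 with library size alone). Of these 5, 4 kept the call with the block and 3 had the other sign with library size alone.

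Within the nuclei libraries, 7987 and 7691 nuclei were clustered without the chaperone list genes, so that no heat shock gene shaped the groups. The clusters were called by marker genes as oligodendrocyte-like (3709 and 3766 nuclei), medium spiny neuron-like (1154 and 1143), microglia-like (749 and 755), astrocyte-like (660 and 576), oligodendrocyte precursor-like (574 and 686) and interneuron-like (196 and 215). Medium spiny neurons are the main projection neurons of the striatum. A further 764 and 541 nuclei stayed unnamed, and excitatory neuron-like (170 and 1) and lymphocyte-like (11 and 8) clusters were too small in 1 library or both to test. Here CPM is a gene's UMIs over the UMIs of all genes in the class, on the same scaling.

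Of the 6 tested classes, HSPA8 took its largest share in microglia-like nuclei, at 259 and 237 CPM in replicates 1 and 2. Astrocyte-like nuclei followed at 205 and 133, oligodendrocyte-like at 129 and 150 and interneuron-like at 140 and 108 CPM. These 3 middle classes overlap in their order. Oligodendrocyte precursor-like nuclei stood lower at 83.9 and 83.1, and medium spiny neuron-like nuclei lowest at 49.2 and 42.7 CPM, apart from every other class in both libraries.

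HSPB1 took its largest share of these 6 classes in astrocyte-like nuclei, at 70.1 CPM (60.1 to 81.3) in replicate 1 and 22.9 CPM (17.1 to 30.0) in replicate 2. Microglia-like nuclei were second at 19.5 and 13.7 CPM. Oligodendrocyte precursor-like nuclei at 6.73 and 6.14, oligodendrocyte-like nuclei at 7.34 and 5.42 and interneuron-like nuclei at 8.26 and 1.60 CPM overlap. Medium spiny neuron-like nuclei again stood lowest, at 1.06 and 0.75 CPM from 43 and 19 UMIs.

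HSPA1A was at 16.03 and 4.40 CPM in astrocyte-like nuclei (40 and 10 UMIs) and at 13.5 and 4.27 in microglia-like nuclei (18 and 5 UMIs). Oligodendrocyte-like nuclei ran the other way between the replicates, at 3.67 and 8.20 CPM. These 3 classes overlap one another and lie above the other 3 within each library. Oligodendrocyte precursor-like nuclei at 2.56 and 0.82 and interneuron-like nuclei at 1.03 and 0.46 CPM overlap, and medium spiny neuron-like nuclei had the lowest values, 0.42 and 0.24 CPM from 17 and 6 UMIs. The interneuron-like values rest on 3 and 2 UMIs, and their intervals (0.21 to 3.02 and 0.055 to 1.65) cover those of medium spiny neuron-like nuclei.

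DNAJB1 was at 34.9 and 11.9 CPM in astrocyte-like, 13.5 and 7.69 in microglia-like and 8.91 and 11.3 in oligodendrocyte-like nuclei, with neighbours in this order overlapping. Medium spiny neuron-like nuclei at 3.98 and 6.69, oligodendrocyte precursor-like nuclei at 4.49 and 4.50 and interneuron-like nuclei at 3.10 and 5.04 CPM lay below them and overlap one another.

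**Figure D2:**
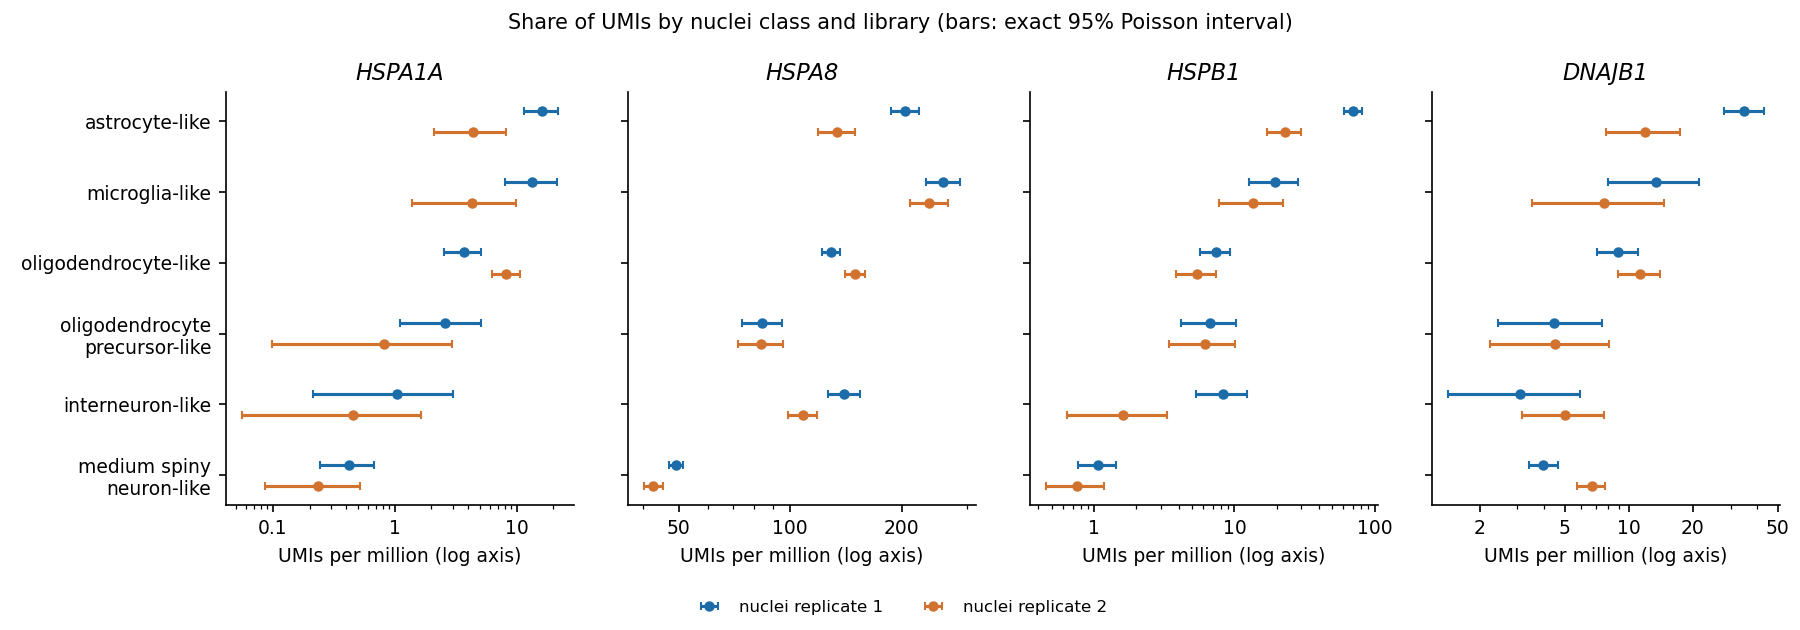
CPM (log axis) of each heat shock gene in the 6 nuclei classes, nuclei replicate 1 in blue and replicate 2 in orange, with exact 95% Poisson intervals as bars. HSPB1 reaches 70.1 and 22.9 CPM in astrocyte-like nuclei and 1.06 and 0.75 in medium spiny neuron-like nuclei.

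Each class was then tested against the mean of the 5 others with edgeR's quasi-likelihood test on the sums per library and class (12993 genes, all 4 heat shock genes among them). Library was a term of the fit, so the p-values measure how class differences vary between only 2 nuclei libraries. Of 24 contrasts, 12 were called, where 4844 to 7893 of the 12993 genes were called in a class. This count alone is therefore no result about the 4 genes. The contrasts of a gene are not independent, since each class is part of the mean for the others.

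In astrocyte-like nuclei, 3 of the 4 genes were called higher, where 23% of all genes were called higher and 15.2% lower. HSPB1 stood at 2.93 on the log2 scale (SE 0.26, adjusted p = 5.40e-06), HSPA1A at 2.16 (SE 0.53, adjusted p = 0.00784) and DNAJB1 at 1.63 (SE 0.37, adjusted p = 0.00473). HSPA8 was at 0.36 (adjusted p = 0.0600) and passed in 4 of the 10 alternative settings. The 3 calls held in all 10, but their size came more from replicate 1: DNAJB1 was at 2.30 in replicate 1 alone and at 0.56 in replicate 2 alone, HSPA1A at 2.41 and 1.22, and HSPB1 at 3.21 and 2.31.

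In medium spiny neuron-like nuclei, 3 of the 4 genes were called lower, where 29.2% of all genes were called lower and 31.5% higher. HSPB1 stood at -3.18 on the log2 scale (SE 0.34, edgeR adjusted p = 1.31e-05), HSPA1A at -3.07 (SE 0.63, edgeR adjusted p = 0.00142) and HSPA8 at -1.29 (SE 0.15, edgeR adjusted p = 2.14e-05). HSPA1A stood nearer 0 in either library alone, at -2.61 in replicate 1 and -2.22 in replicate 2. DNAJB1 was at -0.36 (edgeR adjusted p = 0.385) and stood at -0.76 in replicate 1 alone and at 0.14 in replicate 2 alone. It was called lower there in 3 of the 10 alternatives: -1.18 with a mitochondrial maximum of 20%, -1.24 with 4000 variable genes and -0.72 at clustering resolution 1.0. Clustering on 4000 variable genes left 268 such nuclei in replicate 2, none with a UMI of HSPA1A, and its call was lost there (edgeR adjusted p = 1.0).

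In microglia-like nuclei, 3 of the 4 genes were called higher, where 28.2% of all genes were called higher and 30.5% lower. HSPA8 stood at 0.84 on the log2 scale (SE 0.14, edgeR adjusted p = 0.000303), HSPA1A at 1.74 (SE 0.66, edgeR adjusted p = 0.0400) and HSPB1 at 1.03 (SE 0.38, edgeR adjusted p = 0.0350), while DNAJB1 was at 0.07 (edgeR adjusted p = 0.923). HSPA1A there rests on 18 and 5 UMIs, at 1.89 in replicate 1 alone and 1.02 in replicate 2 alone. In replicate 2 the 5 UMIs all lay in nuclei below the median UMI count of the class, and the 378 nuclei at or above it held 0. Among microglia-like nuclei of 2000 to 5000 UMIs, HSPA1A was at 6.91 and 0 CPM. Each of the 3 calls was lost in 1 of the 10 alternative settings: HSPA1A with a mitochondrial maximum of 20% (edgeR adjusted p = 0.0981), HSPA8 with 4000 variable genes (edgeR adjusted p = 0.0522) and HSPB1 with the library left out of the design (edgeR adjusted p = 0.144).

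In oligodendrocyte-like nuclei, 2 of the 4 genes were called higher, where 28.9% of all genes were called higher and 25.4% lower. HSPA1A stood at 1.70 on the log2 scale (SE 0.47, edgeR adjusted p = 0.0107), but 0.31 in replicate 1 alone against 2.60 in replicate 2 alone, and the call was lost with a mitochondrial maximum of 20% (1.39, edgeR adjusted p = 0.0543). HSPA8 was at 0.42 (SE 0.13, edgeR adjusted p = 0.0200), and 5 of the 10 alternatives ended that call. One oligodendrocyte-like cluster came almost wholly from replicate 2 (92 against 1683 nuclei), and in it HSPA1A was at 6.74 and 14.5 CPM (1 and 35 UMIs), HSPA8 at 182 and 192 and DNAJB1 at 27.0 and 14.5. In the largest oligodendrocyte-like cluster (3069 and 1535 nuclei) HSPA1A was at 3.41 and 3.64 CPM and HSPA8 at 133 and 129.

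In oligodendrocyte precursor-like nuclei, 1 of the 4 genes was called lower, where 14.4% of all genes were called lower and 22.9% higher: HSPA8 at -0.46 (SE 0.15, edgeR adjusted p = 0.0314), a call lost in 3 of the 10 alternatives. DNAJB1 was at -0.84 there (edgeR adjusted p = 0.222) and at 0.52 in oligodendrocyte-like nuclei (edgeR adjusted p = 0.231), and both were called with no filter on low counts (-0.94 and 0.56). In interneuron-like nuclei none of the 4 was called, where 26.1% of all genes were called higher and 19.7% lower. Only 1 of the 4 had an unadjusted p under 0.05, HSPA1A at -2.06 (edgeR adjusted p = 0.0801), and 5 of its 9 alternatives called it lower, DESeq2 among them (adjusted p = 0.0426). HSPB1 was called lower with doublets kept (-0.92) and with no filter on low counts (-0.75), DNAJB1 with no filter (-1.01), and HSPA8 was called higher with 4000 variable genes (1.55, against 0.13). The pair of interneuron-like clusters differed in HSPA8: the smaller one (56 and 59 nuclei) stood at 278 and 327 CPM and the larger one (140 and 156 nuclei) at 113 and 73.0, a difference that was not tested. The smaller cluster was also shallower, with medians of 1871.5 and 5542 UMIs against 13303.5 and 18103.5 in the larger, so cluster and depth cannot be told apart.

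**Figure D3:**
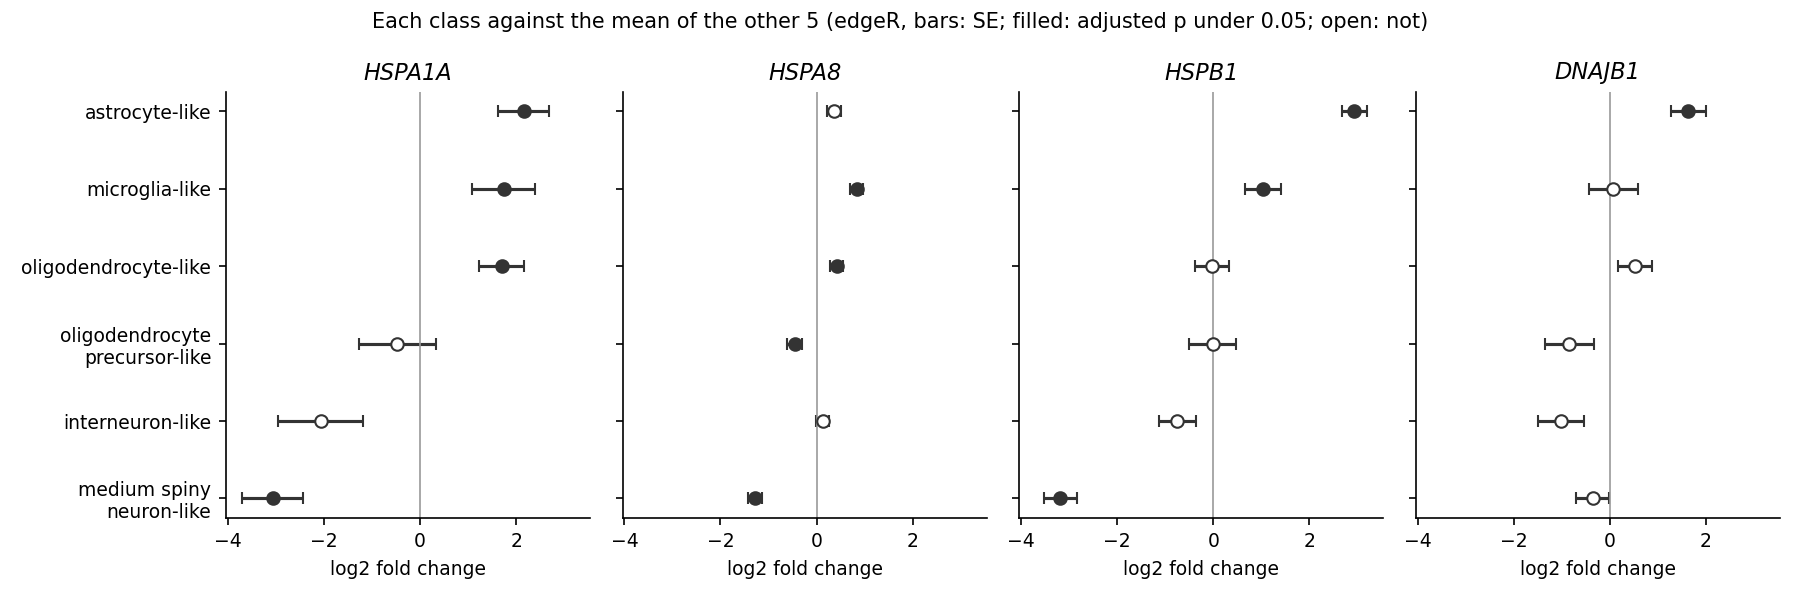
Log2 fold change of each heat shock gene in each nuclei class over the mean of the other 5 classes, with the SE as a bar; filled points have an edgeR adjusted p under 0.05 and open points do not. Filled points stand right of 0 in astrocyte-like, microglia-like and oligodendrocyte-like nuclei and left of 0 in medium spiny neuron-like and oligodendrocyte precursor-like nuclei.

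The share of RNA and the number of molecules per nucleus gave different orders. Medium spiny neuron-like nuclei had a median of 32024 and 17711 UMIs, against 1657 and 1391 in microglia-like nuclei. They carried 1.73 and 0.95 HSPA8 UMIs per nucleus, where microglia-like nuclei carried 0.462 and 0.368 and oligodendrocyte-like nuclei 0.332 and 0.286. Interneuron-like nuclei, with medians of 11181 and 15347 UMIs, carried the most, 2.07 and 2.20. The class with the smallest HSPA8 share therefore took the second place of 6 in HSPA8 molecules per nucleus in both libraries.

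Per 1000 nuclei, DNAJB1 gave 140 and 149 UMIs in medium spiny neuron-like nuclei, 132 and 46.9 in astrocyte-like nuclei and 24.0 and 11.9 in microglia-like nuclei. HSPB1 stayed highest in astrocyte-like nuclei by this measure too, at 265 and 90.3 per 1000 nuclei, with 37.3 and 16.6 in medium spiny neuron-like nuclei. HSPA1A was also highest there, at 60.6 and 17.4 per 1000 nuclei, though replicate 2 of oligodendrocyte-like nuclei reached 15.7. Medium spiny neuron-like nuclei were 14.4% and 14.9% of the nuclei and gave 63.3% and 55.5% of the UMIs of all genes, 38.7% and 29.6% of the HSPA8 UMIs, 41.8% and 50.6% of those of DNAJB1, 10.9% and 11.6% of those of HSPB1 and 13.6% and 6.67% of those of HSPA1A.

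**Figure D4:**
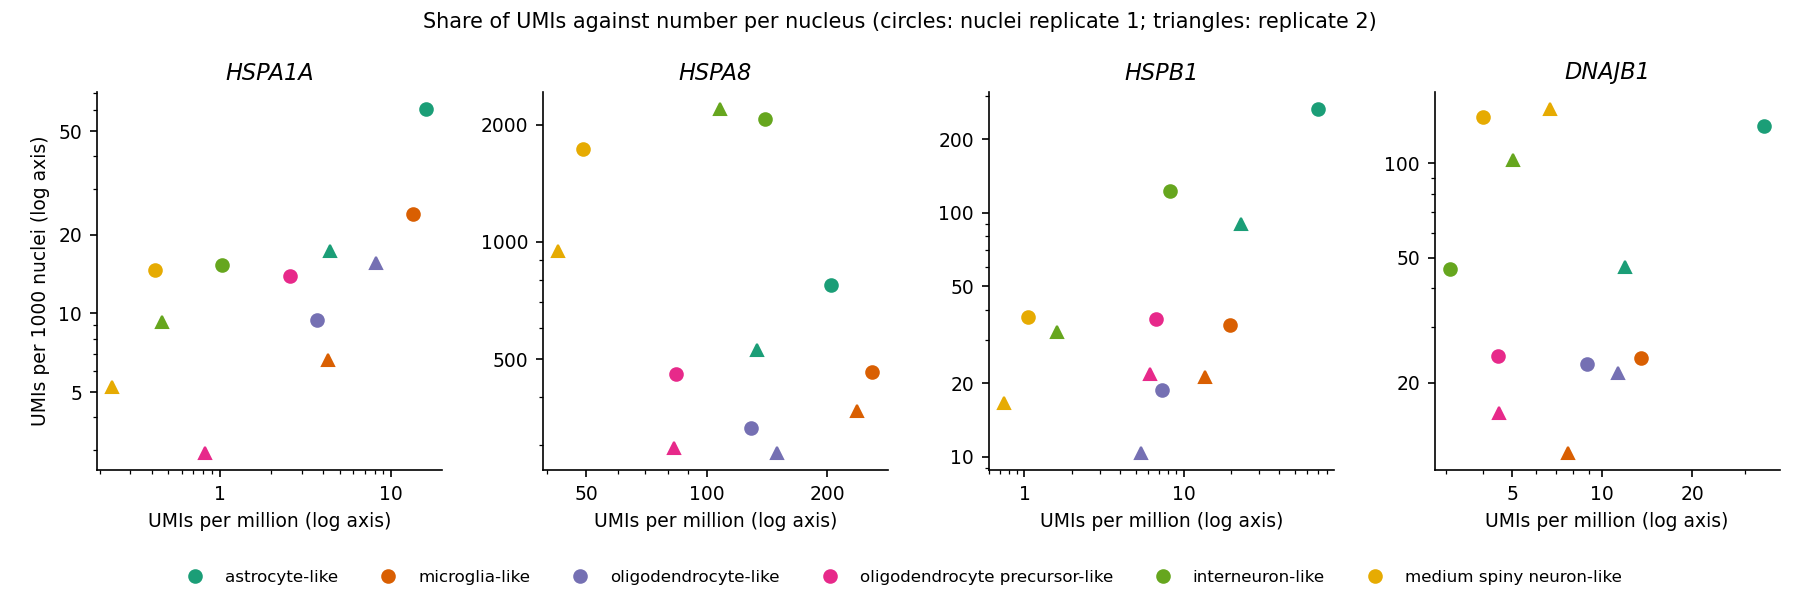
UMIs per 1000 nuclei against CPM for each heat shock gene (both log axes), by nuclei class, with circles for nuclei replicate 1 and triangles for replicate 2. Medium spiny neuron-like nuclei lie at the left in the HSPA8 panel, at 49.2 and 42.7 CPM, and near its top, at 1734 and 948 per 1000 nuclei.

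Depth also moved with the HSPA8 share inside every class, a comparison chosen after the data were seen. Nuclei below the median UMI count of their class and library had a larger HSPA8 share than the rest in all 6 classes and both libraries. In medium spiny neuron-like nuclei the shallower nuclei stood at 74.4 and 81.9 CPM and the deeper ones at 38.3 and 28.8. In interneuron-like nuclei they stood at 290 and 372 against 107 and 55.9, and in microglia-like nuclei, where the intervals overlap, at 298 and 275 against 238 and 218. The interneuron-like class joins a shallower cluster with a larger HSPA8 share and a deeper cluster with a smaller share. Depth and cluster cannot be told apart in that class.

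Among nuclei of 2000 to 5000 UMIs, HSPA8 was at 254 and 179 CPM in microglia-like, 237 and 144 in astrocyte-like and 119 and 108 in oligodendrocyte-like nuclei, and at 127 and 95.5 in oligodendrocyte precursor-like nuclei. The 18 and 13 interneuron-like nuclei in this window had the highest values, 350 CPM (220 to 530) and 581 CPM (376 to 858). Only 7 and 45 medium spiny neuron-like nuclei were that shallow, and HSPA8 there was at 136 CPM (28.1 to 398, from 3 UMIs) and 188 CPM (126 to 270). These few nuclei do not settle the place of the class at matched depth. HSPB1 in the same window was at 79.2 and 31.5 CPM in astrocyte-like nuclei and at 22.5 and 14.9 in microglia-like nuclei. Oligodendrocyte-like nuclei stood at 5.62 and 4.53 and oligodendrocyte precursor-like nuclei at 8.39 and 6.14. Interneuron-like nuclei had 15.9 (1 UMI) and 46.5 CPM (5.63 to 168, from 2 UMIs). Medium spiny neuron-like nuclei had 0 (0 to 168) and 6.49 CPM (0.164 to 36.2, from 1 UMI). So few UMIs do not settle the place of the neuron classes for HSPB1.

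**Figure D5:**
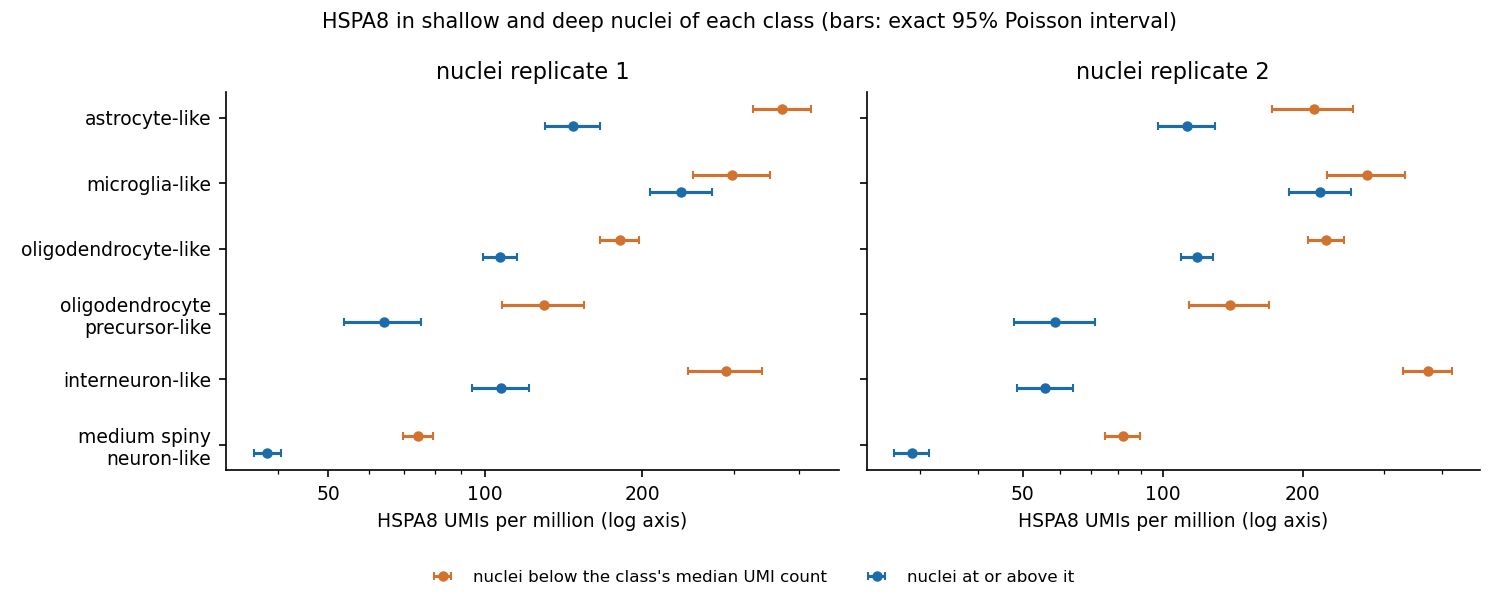
HSPA8 CPM (log axis) in nuclei below (orange) and at or above (blue) the median UMI count of their class, for nuclei replicate 1 (left) and 2 (right), with exact 95% Poisson intervals as bars. The orange point lies right of the blue one in all 6 classes of both libraries, at 74.4 against 38.3 CPM in medium spiny neuron-like nuclei of replicate 1.

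Few nuclei carried the other 3 genes at all. A UMI of HSPA8 was seen in 37.9% and 33.2% of all nuclei barcodes, of HSPB1 in 4.30% and 2.25%, of DNAJB1 in 4.39% and 4.02% and of HSPA1A in 1.61% and 1.19%. After each clustered nucleus was thinned to 1000 UMIs, HSPB1 was seen in 6.16% and 2.66% of 633 and 526 astrocyte-like nuclei but in 0 of 1154 and 0.09% of 1143 medium spiny neuron-like nuclei (3.73% and 1.66% unthinned). The share of such UMIs in a class that should lack a gene was read from SLC1A2, a glutamate transporter gene of astrocytes. It was seen unthinned in 9.97% and 11.7% of medium spiny neuron-like nuclei (median 32024 and 17711 UMIs), at 4.67 and 7.67 CPM, against 76.5% and 81.4% of astrocyte-like nuclei (median 2961 and 2778 UMIs), at 4468 and 4093 CPM. Free RNA, doublets and own expression were not separated here. In CPM, HSPB1 in medium spiny neuron-like nuclei was a larger part of its astrocyte-like level than SLC1A2 was (1.06 of 70.1 and 0.75 of 22.9 against 4.67 of 4468 and 7.67 of 4093).

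At that depth few nuclei had both HSPA1A and DNAJB1. In replicate 1, 6 of the 41 nuclei with HSPA1A (14.6%) also had DNAJB1, against 0.98% of the 7451 without it. In replicate 2 these were 2 of 29 (6.90%) and 1.15% of 6679. The classes that hold HSPA1A are also those with more DNAJB1, so this is a description only.

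The ribosomal protein share differed between the classes too, and its part in their heat shock shares was not tested. Ribosomal protein genes, whose RNA is mostly cytoplasmic, made up 0.188% and 0.219% of UMIs in medium spiny neuron-like nuclei, 0.647% and 0.636% in microglia-like nuclei and 0.400% and 0.467% in astrocyte-like nuclei. Mitochondrial UMIs were 0.827% and 0.542% in medium spiny neuron-like, 0.739% and 1.76% in microglia-like and 0.376% and 0.879% in astrocyte-like nuclei, and the order of these classes differed between the libraries.

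In astrocyte-like nuclei, other members of the same lists moved unevenly. Of 63 chaperone genes tested, 11 were called higher and 8 lower there with TMM, beside 23% and 15.2% of all genes, with a median of 0.04 against 0.03 over all genes. With library size alone these counts were 25 and 1, where 4082 and 1025 of the 12993 genes were called in those directions. BAG3, which HSF1 induces, was at 4.26, HSPB8, its partner in chaperone-assisted autophagy, at 2.38, FKBP5, a glucocorticoid-induced co-chaperone, at 2.15 and CRYAB at 0.78. HSP90AB1 at -0.64 and HSPH1 at -0.72 were called lower with TMM. These calls do not both hold with library size alone, where 1 chaperone gene was called lower. Immediate early genes, which neurons and glia induce within minutes of stimulation, were called higher in 9 of the 9 tested, with NR4A1 at 3.74, FOS at 3.70 and NR4A3 at 3.598.

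In medium spiny neuron-like nuclei, 14 of the 63 chaperone genes were called higher and 24 lower with TMM, beside 31.5% and 29.2% of all genes, with a median of -0.21 against -0.04 over all genes. With library size alone these counts were 10 and 37, where 2930 and 5790 of the 12993 genes were called in those directions. BAG3 was at -4.43, CRYAB at -2.71 and HSPCA at -1.11, while TRAP1 was at 1.48 and HSPA2 at 1.86. Of 9 immediate early genes, 4 were called lower and 0 higher, among them NR4A2 at -4.88, JUN at -4.32 and FOS at -3.66. Microglia-like nuclei had 15 of 63 chaperone genes called higher and 14 lower with TMM, beside 28.2% and 30.5% of all genes, with FKBP5 at 3.63 and HSPB8 at -3.98. With library size alone the microglia-like counts were 29 and 9, where 5489 and 2793 of the 12993 genes were called in those directions.

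Across the 6 classes, the genes with the class pattern most like each heat shock gene were ranked by Pearson's r of log2(CPM + 1), taking the lower r of the 2 nuclei libraries, over 10447 genes. For HSPA8 they were COMMD7 (0.98), UBB (0.97), a ubiquitin gene, and PUS1 (0.96). For HSPB1 they were SSR3 (0.99), TMEM223 (0.97) and VIM (0.97), an intermediate filament gene. For HSPA1A they included TTC14 (0.94) and WIPI1 (0.93), and for DNAJB1 C11orf98 (0.90), ELMO2 (0.89) and HSDL2 (0.89). Between the heat shock genes themselves this r was highest for HSPA1A with DNAJB1, at 0.83, and lowest for HSPA8 with DNAJB1, at 0.42. Each r rests on 6 points from 1 library and is a description only.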

How the data were processed

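The authors deposited 1 matrix of raw UMI counts per library, made with Cell Ranger 6.0.1 (whole cells) and 7.0.0 (nuclei) per the file headers; the submitters' processing notes also name Cell Ranger 2.1.1 and STAR 2.7.2a. Genome build, annotation and the counting of introns are not given in the sources used here. Gene symbols came from the deposited lists, with HSPCA read as HSP90AA1 and HSP10 as HSPE1. The 35 mitochondrial genes were found as a block of the lists.

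Library sums (whole barcodes, 4 libraries) were tested with edgeR 4.0.16 (R 4.3.3), quasi-likelihood test, TMM, its expression filter, and Benjamini-Hochberg adjustment over all genes at 0.05; DESeq2 1.42.0 was an alternative. Replicate numbers pair libraries through the animals of the titles; deviations of same-numbered libraries correlated at -0.05 over 1791 genes (2 pairs).

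Nuclei (at least 200 genes, at most 5% mitochondrial UMIs) were clustered with scanpy 1.11.5: 2000 variable genes, 30 components, 15 neighbours, resolution 0.5. Scrublet called 390 of 8700 and 0 of 8388 doublets, so the highest 8% of scores were removed in each library (713 and 697). A cluster took a class name from at least 3 fixed markers at 2 or more times the mean of the other clusters and at least 20 CPM. It stayed unnamed where classes tied or where its 10 leading genes held more markers of another class. A cluster far shallower than its libraries with no own marker among those genes also stayed unnamed. These thresholds were set after the data were seen, and a first version, with folds over all other nuclei pooled, left one spiny neuron cluster (548 and 645 nuclei) unnamed; it is kept as an alternative. Classes with at least 50 nuclei in each library were tested with library as a term.

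Named genes: the 4 heat shock genes, at most the 3 largest called changes of each list with the same direction in both pools, and HSPA1B, HSPH1, HSP90AA1, HSP90AB1, HSPA5, CRYAB, BAG3, DNAJA1 and HSF1 where measured; CCT5, CCT6A, TCP1 and TRAP1 in nuclei against whole cells were chosen after their values were seen. The genes and lists were chosen with earlier results of these data known. On simulated counts, 200 genes drawn from those with higher counts were changed, and recovery is given for those that passed the filter. For nuclei against whole cells (14107 genes), 78.8% of 4-fold and 97.8% of 16-fold changes were recovered. For astrocyte-like nuclei (12127 genes), 90.9% and 99.0% were. In the data 8231 of 15781 genes were called for nuclei against whole cells, so these rates do not carry over to that many changes. Nor do they carry over to genes as sparse as HSPA1A. Results for some genes are not reported here.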

Additional observations from a re-analysis of the deposited data

How the results depend on the processing

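For nuclei against whole cells, HSPB1 kept its direction and call in all 10 alternatives and HSPA8 in 9 of 10, the exception being library size alone (-0.27). Leaving out 1 library gave -5.80 to -3.93 for HSPB1 and -3.64 to -2.42 for HSPA8, both nearest 0 without whole cells replicate 2, and barcodes of at least 200 genes gave -3.28 and -1.92. HSPA1A turned to 1.21 and DNAJB1 to 1.15 with library size alone, where the median of all genes rose from 0.61 to 3.66. HSPA1A lost its call with DESeq2 (-1.52), barcodes of at least 200 genes (-0.031) and the replicate block (-1.83), and DNAJB1 with such barcodes (-0.69) and the block (-1.81). Leaving out 1 library gave -2.18 to -1.94 for HSPA1A, lost without nuclei replicate 2, and -2.10 to -1.39 for DNAJB1, lost without whole cells replicate 2 or either nuclei library. HSPA1A has no value without whole cells replicate 2, since the other library held 0 UMIs. Where 1 library is left in a kind, it is assumed to vary like the other kind. Genes called numbered 8231, but 13035 with library size alone, 5471 with the replicate block and 4864 to 10007 without 1 library (4864 without whole cells replicate 2, 5438 without nuclei replicate 2). Chaperone genes called numbered 49, but 23 on barcodes of at least 200 genes, 24 with the replicate block and 23 to 52 without 1 library (23 without whole cells replicate 2, 29 without nuclei replicate 2). The cause of each change was not tested.

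Among nuclei classes, genes called for interneuron-like nuclei fell from 5950 to 3912 with 4000 variable genes. Uncalled values changed sign in these cases: HSPA1A in oligodendrocyte precursor-like nuclei with doublets kept (0.26) or 4000 variable genes (0.46); HSPA8 in interneuron-like nuclei at 500 genes or more (-0.0069); HSPB1 (0.39) and DNAJB1 (0.14) in interneuron-like nuclei with 4000 variable genes; HSPB1 in oligodendrocyte-like nuclei with no filter (0.017) and over single replicates (-0.28 to 0.24); HSPB1 in oligodendrocyte precursor-like nuclei with DESeq2 (0.018) and over single replicates (-0.39 to 0.45); DNAJB1 in medium spiny neuron-like nuclei over single replicates (-0.76 to 0.14); and DNAJB1 in microglia-like nuclei with doublets kept (-0.29), no filter (-0.00097) and over single replicates (-0.33 to 0.45). With a mitochondrial maximum of 20%, no interneuron-like class was large enough to test. Among the named chaperone genes, calls lost with the replicate block are given beside each gene; the others named kept theirs. Whole cells replicate 1, with 125974 nuclear-genome UMIs, limits what can be seen of HSPA1A and DNAJB1 there.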

Other observations

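Clusters outside the 6 tested classes also carried the heat shock genes. An unnamed cluster of 31 and 22 nuclei, with endothelial genes among its leading markers, held HSPB1 at 147 CPM (67.3 to 279, from 9 UMIs) and 71.3 CPM (8.63 to 258, from 2 UMIs). A larger unnamed cluster of 504 and 290 nuclei held HSPA8 at 187 and 219 CPM. The excitatory neuron-like cluster, with 170 nuclei in replicate 1 and 1 in replicate 2, held HSPA8 at 171 CPM in replicate 1. These clusters were chosen after their values were seen.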
